A study of Mus musculus with 20 samples.

Results

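The guanylate-binding proteins are interferon-induced GTPases, and the 8 genes described here (Gbp2, Gbp3, Gbp4, Gbp5, Gbp6, Gbp7, Gbp8 and Gbp9) were taken by name from a table of 57180 mouse gene identifiers. They were measured by stranded poly(A) RNA sequencing in punches of the paraventricular thalamic nucleus (PVT), a midline thalamic nucleus involved in arousal and aversion, and of the posterior insular cortex (pIC), a cortical area for pain and body state. Control mice received vehicle, and the other mice received 1 intraperitoneal dose of 200 mg/kg streptozotocin (STZ), a toxin of pancreatic beta cells used to model painful diabetic neuropathy, and tissue was taken at week 7. Each region had 4 control and 6 STZ libraries, 20 in all, with 17.9 M to 25.5 M counts in a library. The sources used here do not give strain, sex, age or blood glucose, or say whether every library came from a mouse of its own, so the p-values measure the spread between these libraries, which may be technical.

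Guanylate-binding proteins are large GTPases related to dynamin. Cells make them after interferon binds its receptor and the transcription factors it activates reach gene promoters. The proteins gather on the vacuoles of parasites and on the surface of bacteria, break or mark these membranes, and so expose microbial products to inflammasomes, the complexes that start pyroptotic cell death. Several carry a lipid anchor added by prenylation, and their loading onto vacuoles depends on the LC3 conjugation machinery and on a second interferon-induced family, the immunity-related GTPases. In the brain they are known from interferon-exposed microglia, astrocytes and endothelium during infection. The RNA here came from whole punches, in which fewer cells of a type and less RNA per cell cannot be told apart.

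The mouse family lies in 2 clusters. In the reference annotation the order on chromosome 3 was Gbp5, Gbp7, Gbp3, Gbp2b, Gbp2 and the pseudogene Gbp2-ps, and the order on chromosome 5 was Gbp8, Gbp9, Gbp4, Gbp10, Gbp6 and the pseudogene Gbp11. Promoter sequences from RefSeq (GRCm38.p6) matched Gbp2, Gbp3, Gbp5 and Gbp7 among the 8 genes. They are shown because all 4 members were lower after STZ in both regions (Gbp2 without passing the test in PVT) and differed in how far. Each is 250 bases before to 50 bases after the transcription start, 5′ to 3′ in the direction of the gene. Capitals mark matches to the core of the interferon-stimulated response element, GAAANNGAA (TTCNNTTTC on the other strand), and to the gamma-activated site, TTCNNNGAA, which reads the same on both strands.
Gbp5, chr3:142496684-142496983, plus strand: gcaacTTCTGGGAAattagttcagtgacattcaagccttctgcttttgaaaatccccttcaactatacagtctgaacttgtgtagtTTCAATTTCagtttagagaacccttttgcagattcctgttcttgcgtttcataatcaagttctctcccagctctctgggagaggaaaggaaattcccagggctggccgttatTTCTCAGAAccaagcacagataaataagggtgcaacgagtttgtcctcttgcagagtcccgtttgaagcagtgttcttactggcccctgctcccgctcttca
Gbp7, chr3:142530086-142530385, plus strand: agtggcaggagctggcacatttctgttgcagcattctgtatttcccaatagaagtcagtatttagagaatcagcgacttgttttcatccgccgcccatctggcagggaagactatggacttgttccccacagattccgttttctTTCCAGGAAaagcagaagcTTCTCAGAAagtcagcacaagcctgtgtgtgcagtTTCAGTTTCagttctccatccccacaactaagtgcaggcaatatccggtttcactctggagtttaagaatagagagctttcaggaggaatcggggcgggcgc
Gbp3, chr3:142559794-142560093, plus strand: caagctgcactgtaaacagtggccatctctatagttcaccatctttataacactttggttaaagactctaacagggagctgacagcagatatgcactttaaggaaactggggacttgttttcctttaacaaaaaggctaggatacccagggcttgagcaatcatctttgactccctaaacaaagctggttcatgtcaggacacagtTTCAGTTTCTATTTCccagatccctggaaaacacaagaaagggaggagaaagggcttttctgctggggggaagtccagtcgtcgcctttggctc
Gbp2, chr3:142620413-142620712, plus strand: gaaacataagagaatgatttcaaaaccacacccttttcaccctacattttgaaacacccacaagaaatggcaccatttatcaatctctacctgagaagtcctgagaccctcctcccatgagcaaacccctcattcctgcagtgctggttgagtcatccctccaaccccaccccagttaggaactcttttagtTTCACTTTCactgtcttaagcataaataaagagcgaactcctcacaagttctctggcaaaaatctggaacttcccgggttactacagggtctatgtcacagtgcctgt

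Every one of these 4 windows held the response element core, in each case on the minus strand. It lay 164 to 156 bases before the start in Gbp5, 52 to 44 in Gbp7 and 58 to 50 in Gbp2. Gbp3 had 2 matches, at 44 to 36 and 38 to 30 bases before the start, which overlapped each other and print as 1 run of capitals. RefSeq gave Gbp3 another start further along, whose window held neither motif. The gamma-activated site was present in Gbp5 (245 to 237 and 52 to 44 bases before the start) and in Gbp7 (106 to 98 and 87 to 79), without overlapping the response element, and was not found in the windows of Gbp3 and Gbp2. Among 32851 promoter windows of the same length, 8.56% held the response element core, 8.3% the gamma-activated site and 1.07% both. A match is a stretch of letters and was not measured as a bound site.

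The family was lower after STZ in PVT. Gbp3 and Gbp6, the members with the most counts in control PVT, fell by over 4-fold, Gbp4 fell by 3.72-fold, and Gbp7, Gbp9 and Gbp5 fell less. Of the 8 members, 7 had enough counts to be tested and 6 of these fell (adjusted p under 0.05, edgeR quasi-likelihood test with Benjamini-Hochberg adjustment over 17076 genes), beside 1.59% of all genes tested that fell in the same comparison. The exception among the tested members was Gbp2. The median change of the 7 tested members was -1.28 on the log2 scale, against 0.00381 over all genes tested. Testing needed about 10 counts in enough libraries, and Gbp8 did not pass, so the 7 are not the whole family.

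Gbp3 belongs to the chromosome 3 cluster and is among the members recruited to Toxoplasma vacuoles. In control PVT it stood at 19.1, 21.2, 17.9 and 20.5 CPM (counts scaled to library size, per 1000000), and in STZ PVT it ranged from 3.66 to 5.05 with a median of 4.48. The groups were far apart, with the lowest control at 17.9 CPM. The log2 change was -2.15 (SE 0.106, 95% interval -2.38 to -1.92, adjusted p = 2.16e-06, edgeR), a 4.44-fold lower level, and Gbp3 ranked 2 by p among all genes tested.

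Gbp6, of the chromosome 5 cluster, was at 14.2, 21.7, 13.4 and 15.7 CPM in control PVT and at 2.8 to 4.02 CPM (median 3.59) in STZ PVT. Again no STZ library came near a control library. It was lower by 4.57-fold (log2 change -2.19, SE 0.146, adjusted p = 2.85e-05, edgeR). The sequence of Gbp6 is shared in part with other gene models: 59.1% of the 150-base windows of its annotated transcripts also occurred in another gene, 53.7% in Gm43302, a gene model that runs over both Gbp6 and Gbp10, and 29% in Gbp10. The count of Gbp6 therefore depends on how reads matching several genes were treated. With the counts of Gbp6, Gbp10 and Gm43302 added together, a setting chosen after seeing the data, the change in PVT was -2.41 (SE 0.175, adjusted p = 5.12e-05).

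Gbp4, also on chromosome 5, had 4.75, 8.97, 4.46 and 5.38 CPM in control PVT and 1.16 to 2.49 CPM (median 1.44) after STZ. The second control library was the highest, and the lowest control library was still above the highest STZ library. The change was -1.90 (SE 0.254, adjusted p = 0.00307, edgeR). When the 4 PVT libraries with the lowest thalamus neuron score (control replicate 2 and STZ replicates 1, 2 and 3) were left out it was -1.46 with adjusted p = 0.0813.

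Gbp7, which has been linked to the assembly of NADPH oxidase and autophagy proteins on bacterial vacuoles, had 9.24, 12.9, 7.59 and 8.71 CPM in control PVT and 3.55 to 4.55 CPM (median 3.84) in STZ PVT. Its STZ libraries were tightly grouped (SD 0.344, n = 6) and all below the controls. The change was -1.28 (SE 0.138, adjusted p = 5.58e-04, edgeR), a 2.43-fold lower level. Gbp7 shared 8.77% of its windows with Gm43802.

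Gbp9 had 4.64, 6.97, 3.21 and 4.98 CPM in control PVT and 1.28 to 2.61 CPM (median 2.06) after STZ, with no overlap. The change was -1.28 (SE 0.224, adjusted p = 0.017, edgeR). It no longer passed the test without control replicate 1 (adjusted p = 0.0508), control replicate 4 (0.0618) or STZ replicate 4 (0.0531), with changes between -1.25 and -1.31.

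Gbp5, a member tied to NLRP3 inflammasome activation, had 3.37, 8.74, 4.73 and 4.72 CPM in control PVT and 2.28 to 3.07 CPM (median 2.72) in STZ PVT. The groups did not overlap, but the lowest control library lay only just above the highest STZ library. The change of -0.97 (SE 0.222) had an adjusted p of 0.0498 in edgeR, just inside the threshold, and each omission of a single library other than control replicate 1 ended the call. The largest shift came without control replicate 2 (-0.65, adjusted p = 0.0632) and the highest adjusted p without STZ replicate 4 (0.116). The values were 0.0835 without control replicate 3 and 0.107 without control replicate 4. They were 0.0918, 0.0978, 0.0882, 0.0898 and 0.0697 without STZ replicates 1, 2, 3, 5 and 6.

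Gbp2, which coats Toxoplasma vacuoles and takes part in their destruction, had 8.58, 21.7, 9.46 and 9.08 CPM in control PVT and 3.79 to 6.97 CPM (median 5.03) in STZ PVT. All STZ libraries lay below all control libraries, and control replicate 2 stood far above the rest. The change of -1.19 (SE 0.278, 95% interval -1.80 to -0.57) had an adjusted p of 0.0596 in edgeR and did not pass. Without control replicate 2 it was -0.76 (SE 0.179, adjusted p = 0.0628). DESeq2 gave -1.18 with adjusted p = 0.00185.

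Gbp8 was close to the limit of detection in every group. Its raw counts in control PVT were 5, 32, 5 and 21, and those in STZ PVT were 1 to 8 with a median of 3. The groups overlapped, and Gbp8 was below the filter on low counts. Fitted with no filter on low counts, its adjusted p was 0.0997 in PVT and 0.639 in pIC (edgeR).

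**Figure D1:**
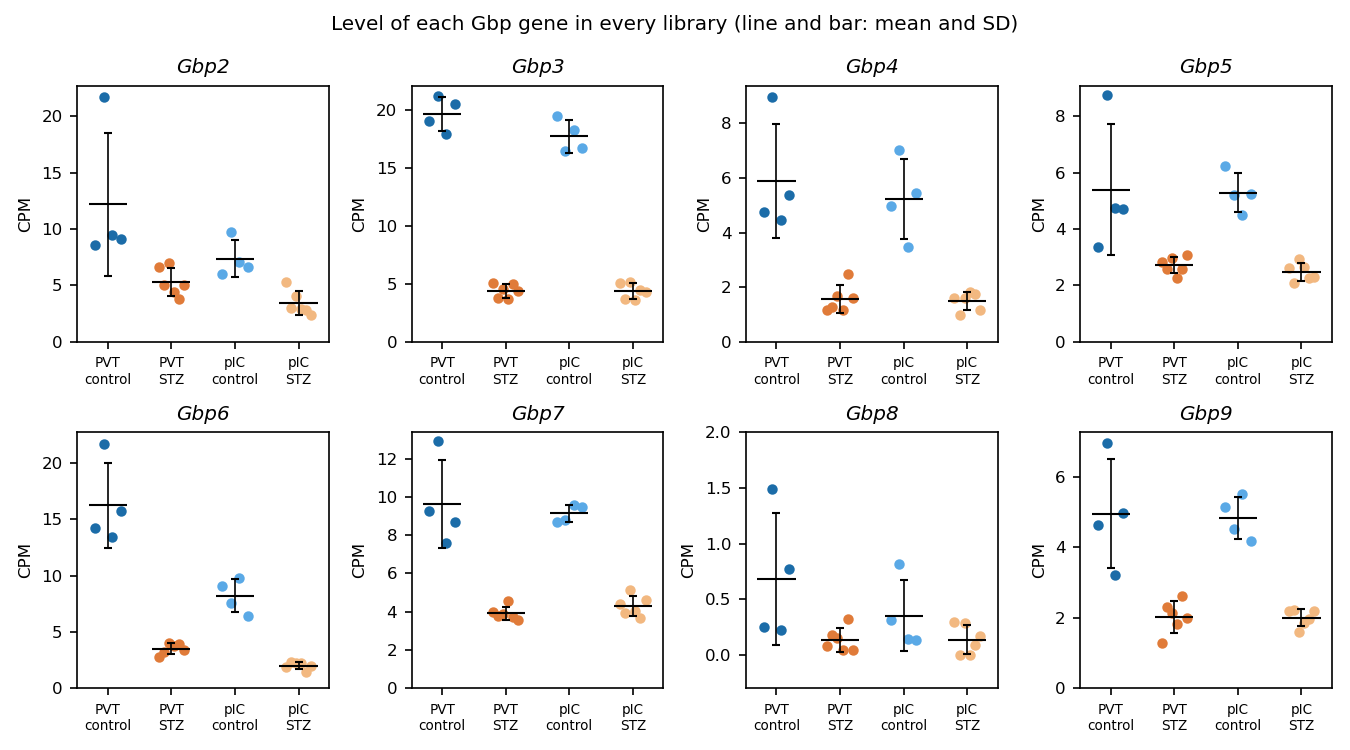
Level of each of the 8 genes in CPM (vertical axes from 0 except for Gbp8, whose axis starts just below 0) in each library, by region and treatment. Points are libraries, lines and bars the mean and SD (n = 4 control and 6 STZ per region). STZ libraries lie below the control libraries of the same region for all genes but Gbp8, and PVT control replicate 2 is the highest PVT control point in all 8 panels. The share of all genes whose groups separate in this way was not computed.

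PVT control replicate 2 was the highest control library for Gbp2, Gbp3, Gbp4, Gbp5, Gbp6, Gbp7, Gbp8 and Gbp9. Its mean log2 CPM over the 7 tested members was 0.558 above the mean of its group, where the other 3 control libraries lay 0.0697 to 0.276 below it. The same library was lowest among PVT controls in the summed thalamus neuron markers (score 4.27, in mean log2 CPM, against 4.81 to 5.89) and highest in the microglia score (4.81 against 4.6 to 4.64). Without it, 5 members were called in PVT, and the changes ran from -0.65 for Gbp5 to -2.12 for Gbp3. PVT control replicate 4 held pituitary hormone transcripts (Gh, growth hormone, at 11800 CPM). Without that library, 4 members were called, those that fell furthest (Gbp3, Gbp6, Gbp4) and Gbp7. In pIC, control replicate 4 had Gh at 35.7 CPM, against at most 1.33 CPM in any other pIC library.

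The posterior insular cortex showed the family lower by nearly the same amounts, in libraries of its own. All 7 tested members fell (edgeR, adjusted p under 0.05 over 16189 genes), beside 0.964% of all genes tested that fell there. The median change was again -1.28, against -0.000626 over all genes. No tested member had an STZ library as high as a control library. The share of all genes that separate in this way was not computed, so the separation is a description only.

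Gbp3 led in pIC too, with 19.5, 16.5, 18.3 and 16.7 CPM in control libraries and 3.63 to 5.16 CPM (median 4.41) after STZ. The change was -2.02 (SE 0.11, 95% interval -2.26 to -1.78, adjusted p = 4.05e-07, edgeR), and its rank by p was 2 of all genes tested, as in PVT. Gbp6 was at 9.09, 7.59, 9.76 and 6.45 CPM in controls and at 1.45 to 2.38 CPM (median 2.08) after STZ. The lowest control library stood well above the highest STZ library, and the change was -2.03 (SE 0.156, adjusted p = 5.42e-06). Gbp4 was at 4.97, 7.02, 3.48 and 5.44 CPM in controls and at 1 to 1.81 CPM (median 1.6) after STZ. It was lower by 3.51-fold (log2 change -1.81, SE 0.206, adjusted p = 2.51e-04).

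The other tested members again fell less. Gbp9 went from 5.15, 4.52, 5.5 and 4.19 CPM in pIC controls to 1.6 to 2.21 CPM (median 2.07) after STZ, a change of -1.28 (SE 0.137, adjusted p = 1.42e-04, edgeR). Gbp7 had 8.69, 8.79, 9.57 and 9.49 CPM in controls and 3.7 to 5.12 CPM (median 4.2) after STZ, and its change was -1.09 (SE 0.107, adjusted p = 6.5e-05). Both separated the groups cleanly, and the controls of Gbp7 were the tightest of any member relative to the mean (SD 0.457, n = 4).

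Gbp5, which was at the threshold in PVT, passed clearly in pIC. Its control libraries had 6.23, 5.19, 4.51 and 5.25 CPM and its STZ libraries 2.08 to 2.95 CPM (median 2.46). It was lower by 2.15-fold (log2 change -1.10, SE 0.136, adjusted p = 5.73e-04, edgeR). Gbp2 also passed in pIC, with 6, 9.76, 7.07 and 6.63 CPM in controls, 2.35 to 5.26 CPM (median 2.95) after STZ and a change of -1.12 (SE 0.206, adjusted p = 0.0149). STZ replicate 1 of pIC came close to the lowest control library for Gbp2. Without pIC control replicate 2, the change of Gbp2 was -0.95 with adjusted p = 0.0727. Gbp8 had 7, 17, 3 and 3 counts in pIC controls and 0 to 7 counts after STZ, and was again below the filter.

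**Figure D2:**
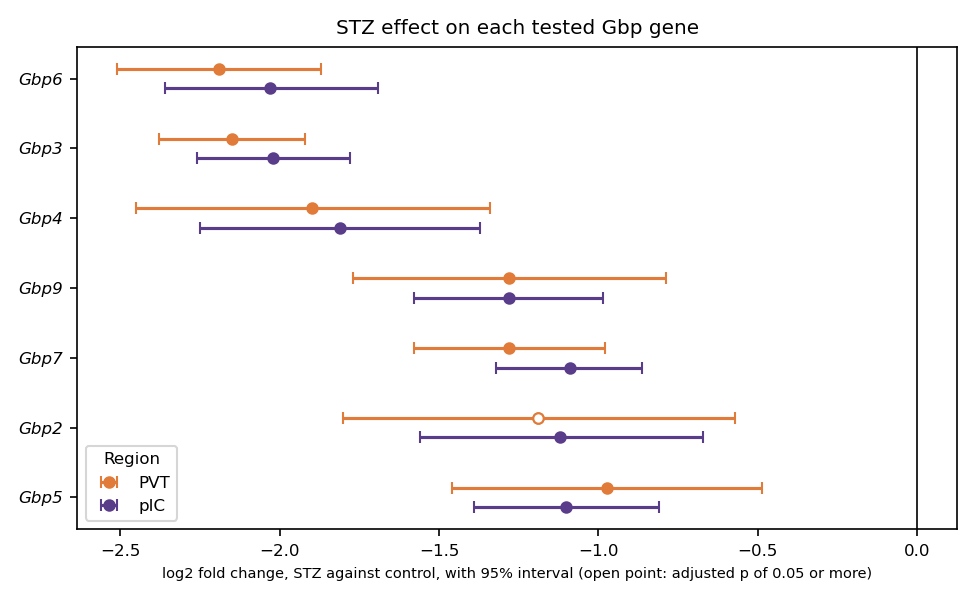
Log2 fold change of STZ against control for the 7 tested genes, with 95% intervals from the edgeR fit of each region (4 control and 6 STZ libraries), PVT in orange and pIC in purple. All intervals lie below 0; Gbp6, Gbp3 and Gbp4 lie further left than the other 4 genes in both regions, and the open point is Gbp2 in PVT, with an adjusted p of 0.0596.

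The size of the STZ effect did not differ detectably between PVT and pIC. When the STZ effects of PVT and pIC were compared with each other in 1 edgeR model, 0 of 7 tested members passed (all adjusted p = 1), 0 members had an unadjusted p under 0.05, and DESeq2 called 0 members as well. Over all genes the interaction called 0% (0 of 17427 in edgeR, 701 at an unadjusted p under 0.05, and 4 in DESeq2). The differences in log2 change, PVT minus pIC, ran from -0.203 for Gbp7 to 0.11 for Gbp5. The 95% intervals were -0.469 to 0.179 for Gbp3 and -0.652 to 0.285 for Gbp6, and the widest was that of Gbp2 (-0.879 to 0.709). These intervals leave room for regional differences of up to those sizes.

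Members differed among themselves in how far they fell, which was examined through the ratio of 2 members within each library, since a ratio does not depend on how libraries are scaled to each other. The ratios were chosen after the fold changes had been seen. Over 21 pairs in each of 2 regions, each ratio of counts (with 0.5 added, log2) was compared between STZ and control by a two-sided exact permutation test over all 210 assignments of libraries to groups. The smallest p this test can give is 0.00476, and p-values were adjusted over the 42 ratios. In PVT 10 pairs and in pIC 8 pairs had an adjusted p under 0.05, and each of these pairs set Gbp3, Gbp6 or Gbp4 against Gbp2, Gbp5, Gbp7 or Gbp9, with the first-named 3 falling more. Pairs share members, so they are not independent results, and they follow the order of fold changes already seen.

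With each library left out in turn, these pairs kept their direction in all 10 omissions of their region, and the unadjusted exact permutation p was at most 0.0357. The smaller groups limit the test to a smallest p of 0.0119 or 0.00794. Adjusted within the region, 5 to 10 of the 10 PVT pairs then passed, with the fewest (5) without STZ replicate 3 or 6, 6 without control replicate 1, 3 or 4 or STZ replicate 2 or 4, and 8 without control replicate 2. In pIC 0 of 8 passed without control replicate 1 or 4 or STZ replicate 1 or 4, and 4 to 7 passed in the other omissions (4 without STZ replicate 2 and 5 without STZ replicate 3).

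In 4 pairs the p was the smallest possible in both regions, and 1 of them was Gbp3 with Gbp7, neighbours in the chromosome 3 cluster. The mean log2 ratio of Gbp3 to Gbp7 in PVT was 1.06 ± 0.245 (SD, n = 4) in controls and 0.158 ± 0.27 (SD, n = 6) after STZ, a change of -0.899 (exact permutation p = 0.00476, adjusted p = 0.0222). In pIC the ratio went from 0.955 ± 0.15 to 0.0255 ± 0.18, a change of -0.93 (exact permutation p = 0.00476, adjusted p = 0.0222). In both regions the ratios of the groups did not overlap. The pairs of Gbp3 with Gbp5, Gbp6 with Gbp7 and Gbp6 with Gbp5 had the same p-values in both regions, also without overlap. For Gbp3 to Gbp5 the change was -1.26 in PVT and -0.931 in pIC.

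Gbp3 and Gbp6, on different chromosomes, kept nearly the same ratio. The STZ change in their log2 ratio was 0.0195 in PVT (exact permutation p = 0.962) and -0.0102 in pIC (p = 0.99). This depends on how reads that Gbp6 shares with Gbp10 and Gm43302 were counted. With the counts of Gbp6, Gbp10 and Gm43302 added together the change in PVT was -2.41, beside -2.15 for Gbp3 in the main fit. The ratio of Gbp6 to Gbp5 fell by 1.28 in PVT and by 0.921 in pIC (exact permutation, both adjusted p = 0.0222), and that of Gbp4 to Gbp5 fell by 0.993 and 0.693 (both adjusted p = 0.0353). Gbp2 against Gbp4 gave adjusted p-values of 0.0957 and 0.0909 in PVT and pIC, and Gbp7 against Gbp4 gave 0.0909 in both. The clusters on chromosomes 3 and 5 therefore each held members with larger and with smaller changes.

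**Figure D3:**
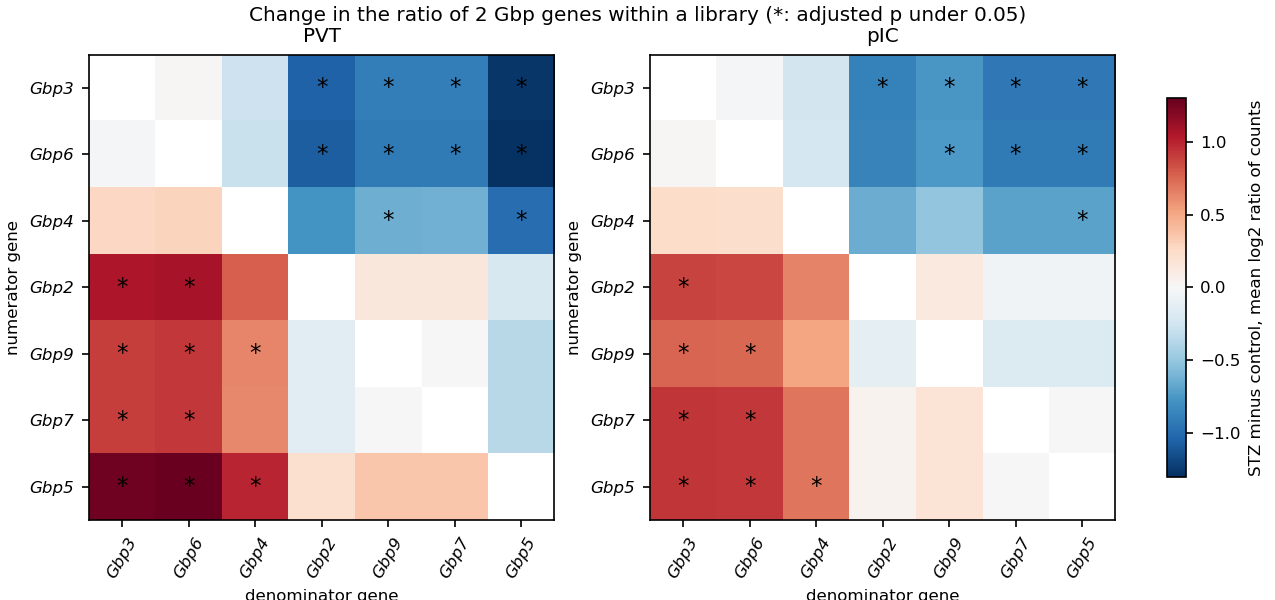
Change in the log2 ratio of 2 members within a library, STZ minus control, in PVT (left) and pIC (right), for the row gene over the column gene. Blue cells mark a numerator that fell more; stars mark an adjusted p under 0.05 (exact permutation test), and they occur only where Gbp3, Gbp6 or Gbp4 is set against Gbp2, Gbp9, Gbp7 or Gbp5.

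The makeup of the family changed accordingly. The 8 genes summed to 74.7 ± 19.7 CPM (SD, n = 4) in control PVT and 23.6 ± 1.72 CPM (n = 6) in STZ PVT. In pIC the sums were 58.2 ± 2.75 and 20.2 ± 2.31 CPM. Gbp3 made up 27.2% of the sum in control PVT and 18.6% after STZ, while Gbp2 made up 15.7% and then 22.4%. In pIC Gbp3 went from 30.5% to 21.7% and Gbp7 from 15.7% to 21.3%. These shares are of counts, so longer transcripts weigh more.

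**Figure D4:**
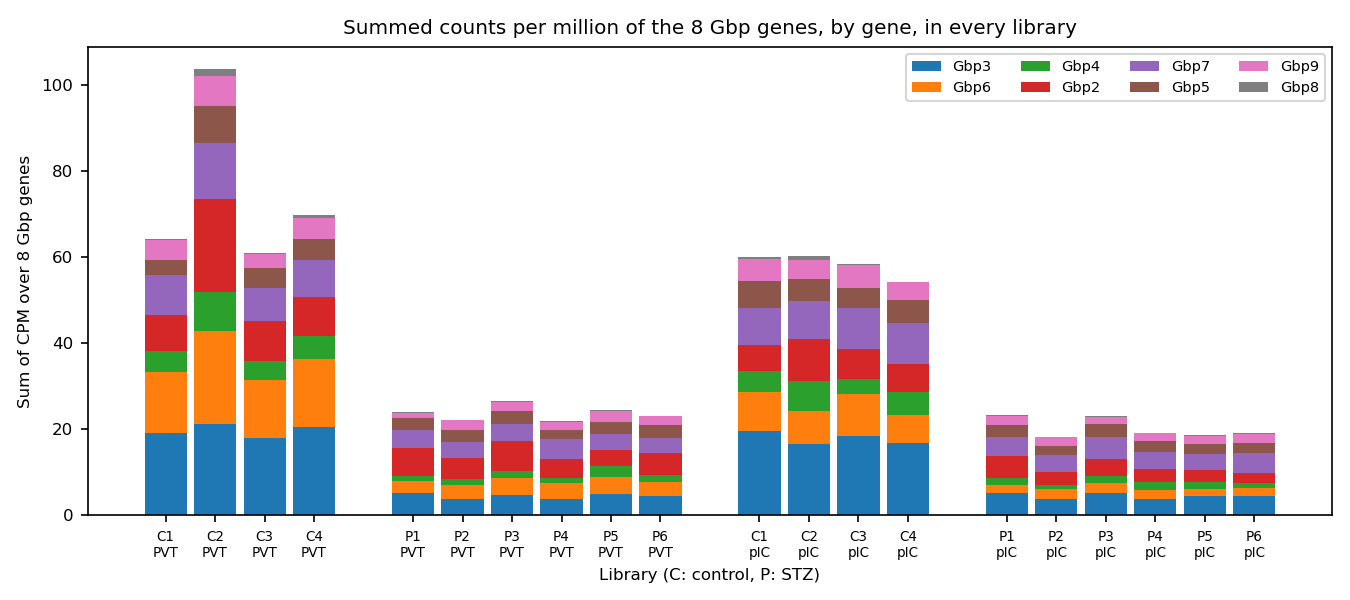
Sum of CPM over the 8 genes in each library (20 bars, stacked by gene), control (C) and STZ (P) in PVT and pIC. Control sums lie between 54.3 and 104 CPM and STZ sums between 18.2 and 26.4 CPM; the tallest bar is PVT control replicate 2.

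To order the genes by level, CPM was divided by the length of each gene's longest coding transcript. In control PVT, Gbp3 stood highest at 7.34 ± 0.548 CPM per kilobase (SD, n = 4), followed by Gbp6 at 6.24 ± 1.44 and Gbp2 at 4.85 ± 2.52, and these 3 overlapped from one to the next. Gbp5 (1.76), Gbp7 (1.71), Gbp4 (1.3) and Gbp9 (1.13) formed a lower range in which neighbours also overlapped, and Gbp8 was last at 0.278. In STZ PVT the order of means began with Gbp2 at 2.11 ± 0.496, Gbp3 at 1.64 ± 0.219 and Gbp6 at 1.35 ± 0.182 CPM per kilobase (SD, n = 6), again with neighbours overlapping. In control pIC, Gbp3 at 6.62 ± 0.529 was above the range of all other members, with Gbp6 (3.16) and Gbp2 (2.93) overlapping each other. After STZ in pIC, Gbp3 (1.64 ± 0.245) and Gbp2 (1.35 ± 0.423) overlapped at the top, and Gbp4 (0.328) and Gbp9 (0.457) overlapped below.

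Gbp6 was higher in PVT than in pIC in control and in STZ mice, and Gbp2 was higher in PVT in STZ mice. In control mice it averaged 16.3 CPM in PVT and 8.23 CPM in pIC, without overlap (log2 difference 0.98, SE 0.171, adjusted p = 9.18e-04, edgeR). In control mice 1 of 7 tested members was called, where 47.8% of all genes tested differed between the regions. In STZ mice Gbp6 averaged 3.53 and 2.02 CPM, again without overlap (0.81, SE 0.139, adjusted p = 3.71e-04). Gbp2 was the other of the 2 members called in STZ mice (5.31 and 3.40 CPM, log2 difference 0.65, SE 0.202, adjusted p = 0.0167), where 49.1% of all genes differed. In control mice Gbp2 had 12.2 and 7.36 CPM, with a difference of 0.73 (adjusted p = 0.0962 in edgeR). Its level was higher in PVT in all 4 pairs of same-numbered control libraries, but the labels do not say that equal numbers are 1 mouse, and these pairs were not used in the main fit. Gbp2 passed in control mice with DESeq2 (0.711, adjusted p = 0.0331), limma-voom (0.691, adjusted p = 0.0452) and 1 edgeR fit of all libraries (0.729, adjusted p = 0.0402). Without PVT control replicate 2 its difference was 0.28 (adjusted p = 0.179, edgeR).

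The remaining genes of the family were sparse. Gbp10, next to Gbp6 on chromosome 5, had 30, 56, 17 and 23 counts in control PVT and 2 to 10 counts in STZ PVT. It fell (log2 change -3.14, SE 0.481, adjusted p = 0.00744, edgeR), and it shared 66.6% of its windows with other genes. Gbp10 passed the filter on low counts only through its control libraries, so its entry to the test depended on that group being high. In pIC Gbp10 had 28, 10, 21 and 10 counts in controls and 0 to 4 after STZ, too few for the test. Gm43302, the model running over Gbp6 and Gbp10, had 37, 91, 28 and 31 counts in control PVT, 0 in 4 of the 6 STZ libraries and 1 and 2 in the others. In pIC it had 2, 10, 13 and 29 counts in controls and 0 to 11 after STZ, which overlapped and were too few for the test. Its difference in STZ effect, PVT minus pIC, was -4.91 (SE 1.28, adjusted p = 0.767, edgeR). The adjusted p of Gm43302 in PVT was 5.26e-04 (edgeR), and it too passed the filter only through its control libraries. The pseudogene Gbp11 showed no change in PVT that passed (0.04, SE 0.321, adjusted p = 0.963), with 6 to 12 counts in controls and 6 to 16 after STZ. Gbp2b, which has 1 response element core in its promoter window, had 0 counts in 19 libraries and 1 count in pIC STZ replicate 6, and Gbp2-ps had none.

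The genes named from here on come from lists assembled with earlier results of these data known, so their counts are descriptions. The interferons themselves were at or near 0: 6 of 8 interferon genes had no count in any library, Ifng (interferon gamma) had counts in 1 control library of each region and none after STZ, and Ifnb1 (interferon beta) had counts in 1 pIC STZ library. None passed the filter on low counts, and absence cannot be told from a level below detection at this depth.

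Of the genes that relay the interferon signal, some members are described here and no count over the list is given. Stat2 fell by 0.606 and 0.49 in the 2 regions. Ifnar2, a chain of the type I interferon receptor, had -0.31 in both, and passed in pIC (adjusted p = 0.0301) but not in PVT (0.123). The difference between these was not called, since no gene passed the interaction test. The interferon gamma receptor chains Ifngr1 and Ifngr2 lay between -0.128 and 0.145 and did not pass.

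Of the interferon regulatory factors, 3 of 8 tested fell in PVT (Irf9, Irf7 and Irf1) and 2 of 9 in pIC (Irf7 and Irf9). Beside these, 1.59% of all genes tested fell in PVT and 0.964% in pIC. Irf9, a DNA-binding factor of the type I interferon response, changed by -1.54 (SE 0.142) and -1.50 (SE 0.111). Irf1, which acts at Gbp promoters after interferon gamma, changed by -0.87 in PVT (adjusted p = 0.0355, edgeR) and by -0.48 in pIC (adjusted p = 0.0846). Of 7 genes listed as brakes on interferon signalling, Usp18 and Isg15, which are themselves interferon-induced, fell in both regions (Usp18 -2.41 and -2.09, Isg15 -1.84 and -1.88), and the SOCS genes did not pass.

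The immunity-related GTPases share the vacuole with the Gbp proteins. They fell in 8 of 9 tested genes in PVT (median -1.93), beside 1.59% of all genes tested. In pIC 7 of 9 fell (median -1.34), beside 0.964% of all genes tested. Gm4951 is among these in both regions and passed the filter on low counts only through its control libraries. Its entry to the test therefore depended on controls being high (STZ at most 0.344 CPM in PVT and 0.294 CPM in pIC). Irgm2, a regulatory member that sits on host membranes, averaged 19.2 CPM in control and 4.98 CPM in STZ PVT (-1.93, SE 0.211, adjusted p = 7.28e-04, edgeR). In pIC it averaged 13.2 and 4.79 CPM (-1.47, SE 0.0988). Tgtp1, an effector member, changed by -2.09 and -1.87, and Irgm1 by -1.54 and -0.80. Irgq, which is not interferon-induced, was the tested gene that did not pass in either region (0.13 and 0.01), and Iigp1 did not pass in pIC (-1.18, adjusted p = 0.0764). Of other interferon-induced GTPases, 3 of 3 tested fell in PVT (Mx1, Mx2 and Gvin1) and 2 of 3 in pIC (Mx2 and Gvin1), beside the same shares of all genes. Mx1 passed the filter in PVT only through its control libraries (STZ at most 0.203 CPM), so its entry depended on controls being high.

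Inflammasome and pyroptosis genes, the LC3 conjugation genes and the prenylation enzymes act with Gbp proteins, and none of those tested was called in either region. With 1.59% of all genes called lower in PVT and 0.964% in pIC, lists of this size can be without calls at the background share, so these counts of 0 show nothing particular to them. Of inflammasome and pyroptosis genes, 0 of 11 passed in PVT and 0 of 10 in pIC. The member with the smallest p was Pycard, the adaptor ASC, in PVT (-0.50, adjusted p = 0.152) and Gsdmd, the pore-forming gasdermin, in pIC (-0.49, adjusted p = 0.368). The LC3 conjugation genes (0 of 10 in both regions), the prenylation enzymes (0 of 7) and the atlastins (0 of 3), dynamin-like relatives that are not interferon-induced, had medians between -0.02 and 0.12. Genes flanking the Gbp clusters, such as Gtf2b, Pkn2, Lrrc8c and Zfp644, were not called either (0 of 12 in PVT and 0 of 11 in pIC, medians 0.02 and 0.07), while every tested coding member between them had a lower estimate.

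**Figure D5:**
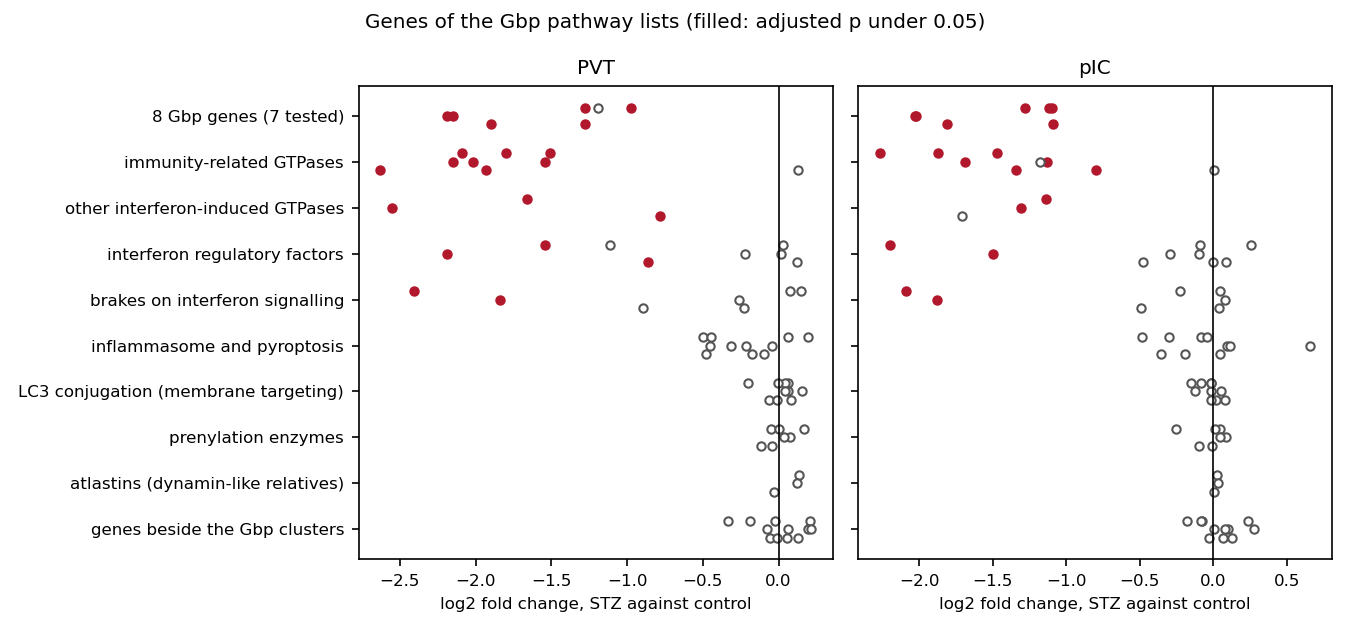
Log2 fold change of STZ against control for each tested gene of the family (top row) and of 9 related lists, in PVT (left) and pIC (right). Filled points have an adjusted p under 0.05 and all lie below 0. Of the immunity-related GTPases 8 of 9 points are filled in PVT and 7 of 9 in pIC, where 1.59% and 0.964% of all genes tested fell. Gm4951 in both regions and Mx1 in PVT passed the filter on low counts only through their control libraries. The lists from the inflammasome downward have open points only.

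The genes whose levels followed the family most closely were sought among 14745 genes with a mean of at least 1 CPM. Over all 20 libraries, which carry the STZ difference in common, Irgm2 had the highest correlation of log2 CPM with the mean of the 7 tested members (Pearson r = 0.977). Other high values were those of Xaf1 (0.961), Oas1a (0.96) and Tap1 (0.959). After the mean of each of the 4 groups was removed, Irgm2 was again first (r = 0.77), followed by Ifi47 (0.759), Znrf3 (0.737), Igtp (0.737) and Cd274 (0.692). Irgm2, Ifi47 and Igtp are immunity-related GTPases, and Cd274 encodes the checkpoint ligand PD-L1. Znrf3, a membrane ubiquitin ligase, did not differ with STZ (-0.04, adjusted p = 0.862 in PVT). PVT control replicate 2 was the library farthest from its group in the family mean, and most of these values rest on it. Without it, a setting added after seeing the data, r was 0.45 for Irgm2, 0.433 for Znrf3, 0.209 for Igtp and 0.552 for Cd274. Ifi47 had 0.784 without it, the highest of all genes compared. The correlations over all libraries were 0.952 to 0.982 for Irgm2, Xaf1, Oas1a and Tap1 without it. Between members, deviations from the group means correlated from 0.0674 (Gbp3 with Gbp6) to 0.681 (Gbp2 with Gbp5) among the 7 tested. Without PVT control replicate 2 they ran from -0.348 (Gbp2 with Gbp9) to 0.465 (Gbp6 with Gbp9), and Gbp2 with Gbp5 had 0.376. These correlations are descriptions over libraries that share depth and punch content.

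Cell type markers were set beside these changes. Of 12 microglia markers, 0 passed in either region, and the microglia score (mean log2 CPM) ranged from 4.6 to 4.81 in control and from 4.57 to 4.68 in STZ PVT, and from 4.67 to 4.79 and 4.58 to 4.78 in pIC. No microglia marker was at 0. Of 12 endothelial markers, Itm2a fell in PVT and Itm2a and Tek in pIC, with scores of 4.67 to 4.71 and 4.48 to 4.83 in PVT, and 4.85 to 4.97 and 4.62 to 4.92 in pIC. Of border macrophage markers 2 of 8 rose in PVT (Stab1 and F13a1) and 2 of 7 in pIC (Stab1 and Lyve1). Over all genes tested, 81 of 17076 rose in PVT and 70 of 16189 in pIC, while 1.59% and 0.964% fell. At these shares marker lists of this size can be without calls. Of 10 astrocyte markers 0 passed in either region. T and NK cell scores were -2.15 to -1.64 in control and -2.65 to -2.06 in STZ PVT, close to the floor of detection, with 1 of 10 markers at 0 in all control PVT libraries.

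The punches differed in other tissue. In PVT, 9 of 10 ependymal markers fell (median -0.71) and 3 of 10 oligodendrocyte markers fell (Mog, Opalin and Cnp), beside 1.59% of all genes tested. Scores in control and STZ libraries did not overlap for ependyma (3.37 to 3.71 and 2.63 to 3.09) or oligodendrocytes (8.49 to 8.77 and 8 to 8.42). Because these scores separate the groups, this tissue content and STZ cannot be told apart in PVT. Neither score was used as a covariate. Of choroid plexus markers 0 of 10 passed, with a median of -0.73. Their scores were 5.37 to 6.27 in control and 4.29 to 5.43 in STZ libraries. In pIC 0 of 5 tested ependymal and 0 of 5 tested choroid plexus markers passed (medians 0.26 and 0.59). Whether tissue content takes part in the changes of the Gbp genes was not tested. With the choroid plexus score as a covariate in PVT, 4 members were called, and Gbp3 was -2.14 (adjusted p = 3.89e-04, edgeR), Gbp9 -1.47 (0.173) and Gbp5 -1.03 (0.386). With the microglia score as a covariate all 7 tested members were called in both regions. With the endothelial score, 6 were called in PVT and 5 in pIC, where Gbp2 had -1.32 (adjusted p = 0.253) and Gbp4 -1.75 (0.0654). Leaving out the 4 PVT libraries with the lowest thalamus neuron score gave 4 called members: Gbp3, Gbp6, Gbp7 and Gbp2.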

How the data were processed

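The authors deposited a table of raw counts per gene for 20 libraries, and the values were whole numbers. The build is GRCm39 (mm39), as listed in the submitters' processing notes. Aligner, counting program, strand setting and annotation: not given in the sources used here. Of 57180 identifiers, 51884 matched a symbol and 24926 had no count.

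Counts were tested in R 4.3.3 with edgeR 4.0.16 (TMM scaling, filterByExpr with minimum count 10 and minimum total 15, robust quasi-likelihood test), each region alone and the interaction over all libraries. Adjusted p is the Benjamini-Hochberg value over all genes tested, and a gene was called under 0.05. CPM uses TMM library sizes, and log2 CPM has a prior count of 2. The method was tested on simulated data. The lowest chi-square per degree of freedom between replicates was 4, so no library was a duplicate of another in its group.

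The members, the 27 gene lists (241 genes, 234 in the table) and the motifs were chosen with earlier results of these data known. Named genes were all members, the other Gbp genes, up to 4 called genes of each pathway list by smallest p (otherwise the 1 of smallest p), and the 5 genes most correlated with the family by each measure. Some further list genes and all marker genes were named after their values were seen. Transcript lengths and shared windows came from GENCODE transcripts of another build, so no positions are given apart from the RefSeq promoters. Alternatives were RLE and upper quartile scaling, other filters, DESeq2 1.42.0, limma-voom with quality weights (limma 3.58.1), 1 fit of all libraries, a replicate block, marker scores as covariates and leaving out each library. Added after seeing the data were the sum of Gbp6, Gbp10 and Gm43302, the ratios between members and the correlations with a library left out. No table column was left unmapped. 1 gene of the lists is not reported here.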

Additional observations from a re-analysis of the deposited data

Results flagged for a closer look

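Gbp2 in PVT control replicate 2 stood at 21.7 CPM, far from the other control libraries of PVT, the nearest of which had 9.46 CPM. The gap was 0.932 of the range of that group. It was the one flag among 32 combinations of member and group, where chance flags about 1 in 20. In pIC, control replicate 2 was also the highest control library for Gbp2, at 9.76 CPM, without standing apart to that degree. Whether these 2 libraries come from 1 mouse is not stated in the labels. What sets the library apart was not tested.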

How the results depend on the processing

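Gbp3, Gbp6 and Gbp7 kept their direction and call under each of 23 alternatives in PVT and 21 in pIC. In PVT 24 and in pIC 4 of the values of single members lost their call, 6 in PVT (all Gbp2) gained it, and 0 changed sign. Member counts stayed between 4 and 7 in PVT and 5 and 7 in pIC. Replicate numbers were not taken to pair the libraries, since not every pair correlated above 0.1, which does not exclude that some are pairs. Correlations of same-numbered libraries ran from -0.261 to 0.44 in PVT, from -0.0413 to 0.298 in pIC and from -0.0869 to 0.211 across regions. Across regions 5 of 10 labels correlated best with themselves, a hint from the data that some labels share a source. The replicate block stood for 2 designs. Within a region it joined control and STZ libraries of equal number, which are different mice, and STZ replicates 5 and 6 had no partner. In the interaction and between regions it joined libraries of equal label. With the block, 4 members and 72 genes were called in PVT, 6 members and 240 genes in pIC and 0 in the interaction. Gbp6 and Gbp2 were called between regions in control mice (Gbp2 0.646, SE 0.145, adjusted p = 0.00911, edgeR) and in STZ mice (2 members each).

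Genes called in PVT (353) were 904 with DESeq2, 679 in 1 fit of all libraries, 53 with the choroid plexus score, 70 without the 4 libraries of lowest thalamus score and 143 to 343 with a library left out. Genes called in pIC (226) were 468 with DESeq2, 367 with limma-voom, 70 with the endothelium score and 128 to 272 with a library left out. Interaction calls (0) were 1 with no filter, 4 with DESeq2 and 0 to 3 with a library left out. Members called between regions in control mice (1) were 2 (Gbp6 and Gbp2) with DESeq2, limma-voom and 1 fit of all libraries.

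Sign changes occurred in 44 values, of which 0 were called. In the interaction, Gbp9 was 0.00182 with no filter, 0.0133 with limma-voom and 0.00881 with the replicate block, and Gbp2 was 0.00711 with limma-voom and 0.0127 with the block. With a library left out, Gbp2 ran from -0.232 to 0.353, Gbp9 from -0.174 to 0.201, Gbp4 from -0.273 to 0.18 and Gbp5 from -0.0555 to 0.447. Between regions in control mice, Gbp9 was -0.0734 and Gbp5 -0.127 with limma-voom, and Gbp5 was -0.0384 with the block. With a library left out, Gbp9 ran from -0.192 to 0.173, Gbp7 from -0.119 to 0.148, Gbp4 from -0.119 to 0.343 and Gbp5 from -0.32 to 0.175. In STZ mice, Gbp3 was -0.00431 with RLE scaling, -0.00404 with DESeq2 and -0.00258 with limma-voom, and Gbp9 was -0.0721 with limma-voom. With a library left out, Gbp3 ran from -0.0404 to 0.0619, Gbp9 from -0.0707 to 0.121 and Gbp4 from -0.112 to 0.145. The causes were not tested. Depth limits Gbp8, Gbp10 in pIC and Gbp11.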
